A study of Arabidopsis thaliana with 6 samples.

Results

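A set of 38 probe sets on the Arabidopsis ATH1 array had similar signals in low and medium light and a lower signal in high light. They were chosen by their light differences among the 22746 probe sets that are not array controls. With signals under 20 set to 20 and taken to log2, high minus medium light was at most -0.7 at both CO2 levels, medium minus low light lay between -0.5 and 0.5 at both, and the signal was 50 or more in both medium-light arrays. Every light difference of these probe sets is therefore a description with no test, and the difference between high and ambient CO2, on which the choice did not rest, is the measure that was tested. The probe annotation gives 11 of the 38 a single gene and does not name the other 27, which are called by their probe set IDs.

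The plants were Arabidopsis thaliana of the Col-0 accession (stock N1092), a standard laboratory line, sampled at developmental stages 3.20 to 3.50, and the labels name no transgene or mutation. All 6 groups grew on compost in a growth room held at 21 degrees C, on days of 10 h light, with the insecticide Intercept, and RNA came from the middle of the rosette as far out as leaf 11. High and ambient CO2 were each combined with low, medium and high light, with 1 array per combination. How strong the light was and how much CO2 the air held is not stated in the sources used here. For the array titled high light and high CO2 the atmosphere entry reads normal, and the title was followed. With no replicates, every p-value rests on how far the 6 arrays lie from a model in which the light and CO2 differences add up. The test also draws each probe set's spread toward that of probe sets with similar signal.

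Each array had a 2% trimmed mean signal of 100 and a median signal between 40.7 and 43.2. The labelled leaf tissue was checked against marker genes. RCA, the activase of Rubisco, had signals between 3608 and 4800.1 and PRK, an enzyme of the Calvin-Benson cycle, between 2173 and 3027.1, while the meristem gene CLV3 had at most 8.6 and the root beta-glucosidase gene PYK10 between 18.1 and 63.7. FAMA, a guard cell regulator, had 56.9 to 82.9, and the trichome, vascular and flower markers have no probe set named in the annotation used here. In whole-tissue samples such as these, fewer cells of a type and less RNA per cell cannot be told apart.

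Leaves that grow in strong light acclimate: the antenna that collects light becomes smaller relative to the reaction centres, capacity for electron transport and carbon fixation increases, and the blade thickens. Signals from the photoreceptors, the redox state of the chloroplast and sugar levels all feed into the nuclear genes that change. Raising CO2 increases carbon fixation at a given light level, so a plant in high CO2 differs from one in ambient air in some of the same inputs. These statements are general background and not results of these arrays.

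Across the 38 probe sets, going up in light, the median signal was 130.3, 123.6 and 60.5 in high CO2 and 161.6, 175.6 and 79.2 in ambient CO2. Signals are given in the order low, medium and high light throughout. The low and medium medians lie close together within each CO2 level and the high-light median lies well below both. The mean high minus medium difference over both CO2 levels ranged from -1.89 to -0.72 log2 units, with a median of -1.05, which is a signal 2.08-fold lower in high light. It was at least 1 log2 unit in size for 23 of the 38 and at least 1.5 units for 2. Both high-light arrays lay below the other 4 for 37 of the 38, where 11.8% of the 13648 tested probe sets did so; the rule largely fixes this count, and nothing is read from it. A high minus medium difference of at most -0.7 at both CO2 levels, which the rule demands, was found in 0.901% of the tested probe sets.

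**Figure D1:**
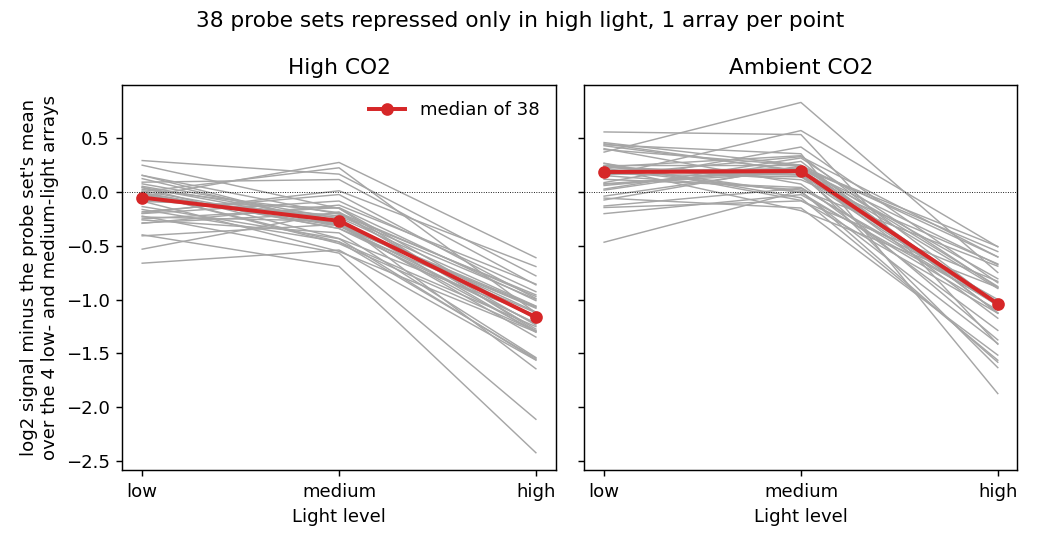
Log2 signal of each of the 38 probe sets (grey lines) relative to its own mean over the 4 low- and medium-light arrays, in low, medium and high light, with high CO2 on the left and ambient CO2 on the right. The red line is the median of the 38. The lines run nearly level between low and medium light and lie lower in high light at both CO2 levels, as the rule requires.

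The difference between high and medium light was larger in high CO2 for 9 of the 38 probe sets and in ambient CO2 for 29. The median high minus medium difference was -0.90 in high CO2 and -1.20 in ambient CO2, or 1.87-fold and 2.30-fold lower in high light. A difference of at least 1 log2 unit was reached by 14 probe sets in high CO2, by 29 in ambient CO2 and by 12 at both. Over all tested probe sets, 51.4% had the more negative difference in ambient CO2. These differences are those the rule used, so no test was made of them. The high-light, high-CO2 array gave the lowest signal of the 6 for 30 probe sets and the high-light, ambient-CO2 array for 8. The highest signal lay on the low-light, ambient-CO2 array for 18 and on the medium-light, ambient-CO2 array for 14. That the lowest signal lay on a high-light array is largely fixed by the rule. The same counts were not made over all tested probe sets, and nothing is read from them.

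Within the window the rule allows, medium light was below low light at both CO2 levels in 16 probe sets, above it at both in 9 and mixed in 13. The medium minus low difference had a median of -0.25 in high CO2 and -0.01 in ambient CO2. The rule used these differences, and they were not set beside those of all tested probe sets. No difference in profile between the CO2 levels is read from them.

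Just inside the threshold, by the smaller of their 2 differences, were AT5G26670 (-0.70 in high CO2 and -0.73 in ambient CO2), AT4G12980 (-1.06 and -0.71) and 256020_at (-0.71 and -1.20). Just outside it were 256299_at (-0.70, short of the threshold by its further digits, and -1.66), 259185_at (-0.69 and -0.70) and 261801_at (-0.67 and -1.07). The signals of 256020_at were 706.5, 509.1 and 310.6 in high CO2 and 807, 768.9 and 333.9 in ambient CO2, and those of 256299_at were 717.7, 541.2 and 333.7 in high CO2 and 603.1, 525 and 165.8 in ambient CO2. The members nearest the threshold and the probe sets just beyond it differ by a few hundredths of a log2 unit, so the boundary of the set is not sharp.

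The 5 largest differences between high and medium light all belong to probe sets with no named gene. The probe set 263252_at had 119.2, 93.9 and 32.2 in high CO2 and 188.7, 178.1 and 38 in ambient CO2. Its high-light signals lie together at the bottom while the other 4 separate by CO2, with both high-CO2 signals below both ambient ones. The signal was 3.70-fold lower in high than in medium light over both CO2 levels, the largest difference of the 38.

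The probe set 256266_at had 70.0, 57.1 and 17.2 in high CO2 and 135.8, 133.5 and 34.6 in ambient CO2. Here each high-CO2 array had well under the signal of its ambient partner at every light level, and high light was 3.32-fold below medium light. Because 17.2 is under the floor of 20, this last size is slightly understated. The next, 254564_at, had 348.3, 279.5 and 107.5 in high CO2 and 404.1, 323.2 and 113.6 in ambient CO2, a 2.72-fold lower signal in high light with little separation by CO2.

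For 261663_at the signals were 157.1, 124.2 and 59.9 in high CO2 and 160.4, 173.0 and 49.2 in ambient CO2, and for 248607_at they were 46.3, 50.4 and 24.8 in high CO2 and 94.7, 130.4 and 43.6 in ambient CO2. The high minus medium difference of 261663_at was -1.05 in high CO2 and -1.81 in ambient CO2, the least even of these 5. In 248607_at the low- and medium-light signals in high CO2 lie only just above the high-light signal in ambient CO2.

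The brightest of the 38, 258239_at, was picked out after its values were seen. It had 4096.6, 3101.0 and 1408.9 in high CO2 and 3149.9, 3532.3 and 1723.8 in ambient CO2, so high light was 2.12-fold below medium light at a level well above the array median. The 38 spanned a wide range of levels: the mean medium-light signal was under 100 in 12, from 100 to 500 in 20 and at least 500 in 6, with a median of 147.7, against 133.3 over the 9855 probe sets with 50 or more in both medium-light arrays. A signal under 30 occurred in 4 members. Further members had high-light signals below the array medians of 40.7 to 43.2, such as AT4G16880 with 34.9 in high CO2 and 37.4 in ambient CO2. With a floor of 40 the rule kept 30 of the 38. At the dim end of the array MAS5 signals are noisy on a log scale.

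The sole probe set whose high-light signals overlap the others, 264436_at, was also picked out after its values were seen. Its signals were 139.9, 177.8 and 83.6 in high CO2 and 223.9, 300.3 and 142.0 in ambient CO2, so that the high-light signal in ambient CO2 lies just above the low-light signal in high CO2. Within each CO2 level its profile has the form of the rest, with differences of -1.09 and -1.08.

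**Figure D2:**
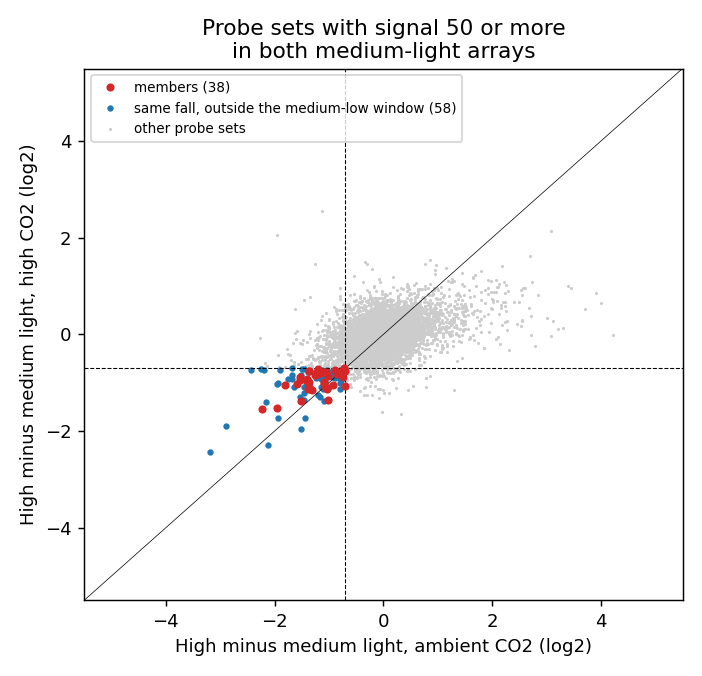
High minus medium light (log2) in high CO2 (vertical axis) against ambient CO2 (horizontal axis) for the probe sets with a signal of 50 or more in both medium-light arrays. Red points are the 38 members, blue points the 58 probe sets with as large a difference whose medium minus low difference lies outside the window, and dashed lines mark -0.7. Most red points lie above the diagonal, that is, their difference is larger in ambient CO2.

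The probe sets with a high minus medium difference of at most -0.7 at both CO2 levels and 50 or more in both medium-light arrays numbered 96, so the 38 make up 39.6% of them. Of the rest, 27 were also lower in medium than in low light by over 0.5 at both CO2 levels, 6 were higher in medium light by over 0.5 at both, and 25 missed the window at 1 CO2 level or in opposite directions. The reverse pattern, level between low and medium light and higher by at least 0.7 in high light, was found in 55 probe sets with 50 or more in both high-light arrays.

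Among the 11 members with a named gene, those with a known protein family are given first, DNA-binding and helicase-like proteins at their head. AT5G35970 belongs to the P-loop nucleoside triphosphatases with a helicase-like domain. Its signals were 524.2, 383.3 and 180.9 in high CO2 and 698.6, 556.1 and 216.7 in ambient CO2. Both high-light signals lie well below all others, a 2.33-fold lower signal in high than in medium light and the largest difference among the named genes. AT1G76110 encodes a protein with an HMG box and an ARID domain, both of which bind DNA. Its signals were 126.8, 100.8 and 54.8 in high CO2 and 146.0, 142.1 and 49.2 in ambient CO2, so the difference between high and medium light was smaller in high CO2 (-0.88) than in ambient CO2 (-1.53).

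UGT74D1 encodes a glycosyltransferase that attaches glucose to auxins and related acids, which stores or inactivates the hormone. It had 81.9, 87.2 and 42.4 in high CO2 and 111.5, 125.5 and 65.8 in ambient CO2. All high-light signals lie below all others, each high-CO2 signal lies below its ambient partner, and the differences between high and medium light were nearly equal, -1.04 in high CO2 and -0.93 in ambient CO2. Of the related genes named in the annotation, UGT74B1, which acts in glucosinolate synthesis, had 151.3, 195.5 and 202.5 in high CO2 and 231.7, 173.4 and 162.9 in ambient CO2, with high minus medium differences of 0.05 and -0.09. AT2G31790 (UGT74C1), also of glucosinolate synthesis, had 173.7, 261.2 and 269.1 in high CO2 and 320.8, 305.5 and 255.2 in ambient CO2, with differences of 0.04 and -0.26. Neither relative reached the -0.7 of the rule at either CO2 level; the difference between the genes was not tested. UGT74F1, a glucosyltransferase of salicylic acid, had at most 3.6 on any array, under the floor of 20, so no light difference could be measured for it.

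AT4G12980 belongs to a family of auxin-responsive membrane proteins with a DOMON and a cytochrome b561 domain. Its signals were 464.4, 371.7 and 178.6 in high CO2 and 489.9, 446.4 and 273.2 in ambient CO2. It is the named gene with the largest excess of the high-CO2 difference (-1.06) over the ambient one (-0.71). AT5G26670 belongs to the pectin acetylesterases, enzymes that remove acetyl groups from cell wall pectin. It had 71.8, 82.9 and 50.9 in high CO2 and 80.1, 96.2 and 57.9 in ambient CO2, the smallest high-light difference of the 38 (1.65-fold lower).

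AT2G41250 encodes a hydrolase of the haloacid dehalogenase type. It had 63.1, 70.5 and 36.1 in high CO2 and 82.7, 71.8 and 27.0 in ambient CO2, with the lowest high-light signal of the named genes. AT4G16880 encodes a protein with leucine-rich repeats and lies between RPP4 and SNC1 in the TAIR10.1 gene table, within a cluster of similar resistance genes, so RNA of near-identical copies may add to its signal, which was not tested. Its signals were 66.9, 59.7 and 34.9 in high CO2 and 73.4, 80.3 and 37.4 in ambient CO2, and the high-light arrays lie well apart from the rest.

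The roles of the remaining named genes are not stated here. AT5G43720 had 90.2, 105.2 and 41.3 in high CO2 and 78.3, 88.5 and 43.8 in ambient CO2. AT4G33380 had 366.8, 373.1 and 189.3 in high CO2 and 331.1, 310.6 and 120.4 in ambient CO2. In both, the signals in low and medium light were higher in high CO2 than in ambient CO2, against the direction of most members. AT1G79160 had 106.3, 76.8 and 38.9 in high CO2 and 103.6, 98.3 and 46.0 in ambient CO2. AT3G14760 had 79.2, 57.2 and 32.6 in high CO2 and 94.6, 94.6 and 52.5 in ambient CO2, where the low- and medium-light signals are identical. Differences between high and medium light in these 4 genes ranged from 1.78-fold for AT3G14760 to 2.27-fold for AT5G43720.

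**Figure D3:**
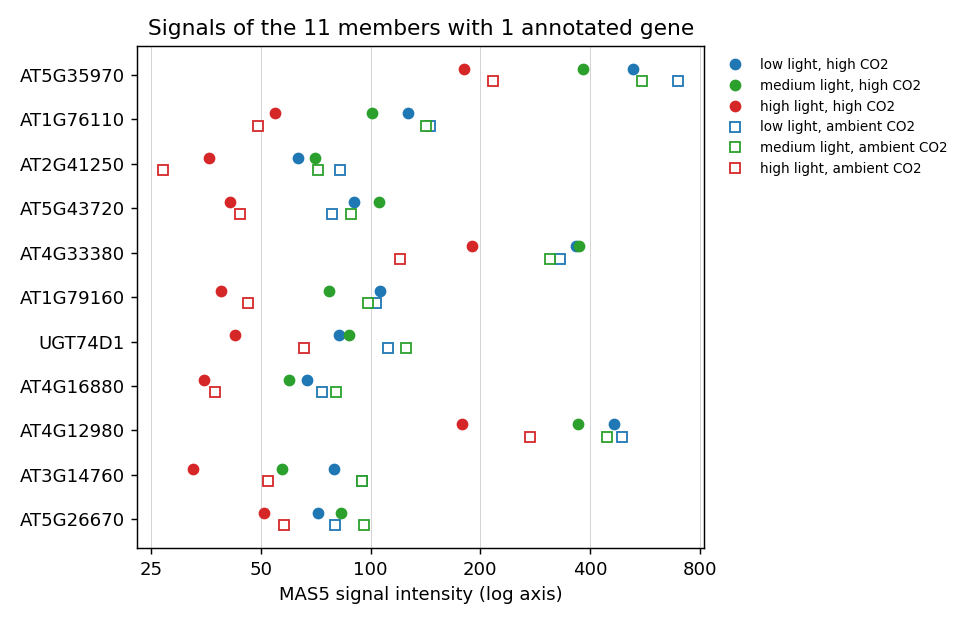
Signal of the 11 members with 1 named gene on each of the 6 arrays (log axis), ordered from the largest difference between high and medium light at the top to the smallest at the bottom. Red marks are high light, green medium and blue low; filled circles are high CO2 and open squares ambient CO2, and in AT3G14760 the blue and green squares coincide at 94.6. Red marks lie left of the green and blue marks for every gene.

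No member's gene had a second probe set in the annotation, so no gene was measured in duplicate. The genes next to the 11 on the chromosome numbered 22, of which 13 have a named probe set, 14 probe sets in all, and 5 of these had 50 or more in both medium-light arrays. One of the 14, against 0.901% of all tested probe sets, was also lower in high light by at least 0.7 at both CO2 levels. It measures SWEET2, a sugar transporter of the vacuole membrane and the neighbour of AT3G14760, with 104.1, 61.9 and 33.4 in high CO2 and 100.4, 90.9 and 42.5 in ambient CO2. Its high minus medium differences were -0.89 and -1.10, and it is no member because its signal in high CO2 was already lower in medium than in low light. STOMAGEN, which encodes a peptide that promotes stomata and lies next to AT4G12980, had high minus medium differences of -0.26 in high CO2 and -0.20 in ambient CO2.

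None of the 14 pathway lists contributed a member. The lists covered the light-harvesting antenna, sugar starvation, shade and auxin growth, the clock, nitrate, sulphur, phosphate and iron, cold, glucosinolates, aquaporins, cell wall loosening, defence and light signalling. Of their 178 genes only 24 have a probe set with a single gene in the annotation, and 4 lists have none, so the lists were sampled thinly. The rule chose 38 of 22746 probe sets, so finding no member among so few genes says little about the lists. Among the 24, those lower in high light by at least 0.7 at both CO2 levels were IAA29, a repressor of auxin responses (high minus medium light -0.84 in high CO2 and -0.81 in ambient CO2), and the expansin EXPA8 (-1.38 and -1.10). Both were also lower in medium than in low light by over 0.5 at both CO2 levels, which places them outside the set. Over all tested probe sets, 0.901% were lower in high light by at least 0.7 at both CO2 levels.

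High CO2 was compared with ambient CO2 across the 3 light levels. The 38 probe sets lay mostly lower in high CO2: the fitted difference was below 0 in 33 of 38, against 48.5% of all 13648 tested probe sets. The median difference was -0.29 log2 units over the 38, with an interquartile range of -0.46 to -0.15, against 0.01 over all tested probe sets, with -0.12 to 0.13. No single member passed the test (limma, Benjamini-Hochberg adjusted over all tested probe sets), in a comparison that called 0.0586% of probe sets, 0.00733% lower and 0.0513% higher in high CO2. The smallest adjusted p among the members was 0.103, for 256266_at.

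An unadjusted p under 0.05 was reached by 18 members with a lower and 2 with a higher signal in high CO2, against 4.05% and 4.58% of all tested probe sets in those directions. The signal was lower in high CO2 at all 3 light levels in 26 members, against 13.8% of the tested probe sets, and higher at all 3 in 3 members, against 16.0%. The members share the same 6 arrays and were chosen together, so these counts are not independent observations and no p is given for the list. The rule also bounds the light differences at both CO2 levels and with them the departures that make up each member's spread.

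By light level, 31 members were lower in high CO2 in low light (50.9% of tested probe sets), 34 in medium light (49.0%) and 30 in high light (45.8%). The median CO2 difference of the members was -0.24, -0.44 and -0.18 at these levels, against -0.01, 0.01 and 0.03 over all tested probe sets. All 3 medians of the members lie below 0, with the largest in medium light; how much these 3 differ from one another follows from the differences the rule used and was not tested. Without either medium-light array the median over the members was -0.19, and without either high-light array it was -0.33. Leaving out either array of a light level gives the same CO2 differences, since the pair is then lost.

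**Figure D4:**
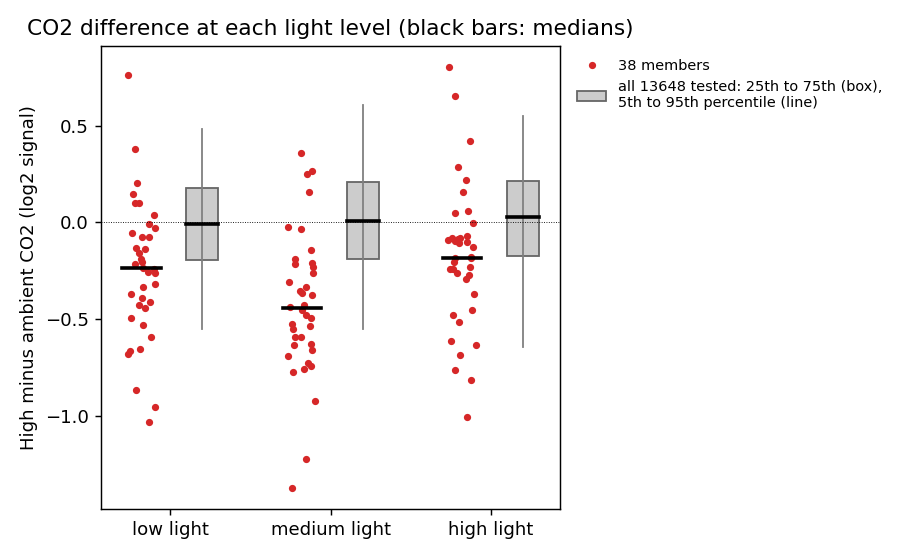
High minus ambient CO2 (log2 signal) in low, medium and high light. Red points are the 38 members, and the grey boxes and lines give the interquartile range and the 5th to 95th percentiles of all 13648 tested probe sets; black bars are medians. The medians of the members, -0.24, -0.44 and -0.18, lie below those of all tested probe sets at each light level.

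The largest CO2 differences among the members belonged to unnamed probe sets. They were -1.07 ± 0.17 for 248607_at (standard error of the fit, adjusted p = 0.134), -1.06 ± 0.15 for 256266_at and -0.73 ± 0.11 for 264436_at (adjusted p = 0.128). For each of these the signal was lower in high CO2 at 3 of 3 light levels. Without either high-light array 5 members passed the limma test, all lower in high CO2, where 0.454% of probe sets were called lower without the high-CO2 array and 0.469% without the ambient one. Those 5 were 248607_at (-1.20, adjusted p = 0.00562 without the high-CO2 array), 256266_at (-1.09, 0.00768), 263252_at (-0.79, 0.0342), 264436_at (-0.72, 0.0312) and 247222_at (-0.63, 0.0437). In that fit a member's spread comes only from its medium minus low differences at both CO2 levels, which the rule held between -0.5 and 0.5. The choice of members thus favoured a small spread and a small p there, so nothing is read from these calls. Dropping the high-light, high-CO2 array removes the array whose labels disagree. With CO2 taken from its atmosphere entry instead, no member passed and the median was -0.33.

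The signals of 247222_at, picked out after its values were seen, were 405.2, 328.8 and 190.5 in high CO2 and 610.8, 520.3 and 223.3 in ambient CO2. The separation by CO2 is plain in low and medium light and small in high light. Over all 6 arrays its difference was -0.49 ± 0.12 (limma adjusted p = 0.31).

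Of the named genes, 8 had a CO2 difference below 0. AT3G14760 had -0.56 ± 0.16 (limma adjusted p = 0.4) and UGT74D1 -0.53 ± 0.13 (0.318), and AT5G35970 followed with -0.40 ± 0.11 (0.351). Each of these 3 was lower in high CO2 at 3 of 3 light levels. Their 95% intervals were -0.93 to -0.18, -0.85 to -0.22 and -0.65 to -0.15. All intervals given here are for each gene alone and are not adjusted for the number of probe sets tested. AT4G12980 had -0.32 ± 0.13 and AT4G16880 -0.22 ± 0.16. AT1G79160, AT5G26670 and AT1G76110 lay between -0.19 and -0.18. Several of these values depend on 1 light level. AT4G12980 was at -0.17 without either high-light array, and without either medium-light array AT4G16880 was at -0.12, AT1G79160 at -0.10 and AT1G76110 at -0.02. AT1G79160 was at -0.30 without either low-light array and AT1G76110 at -0.35 without either high-light array. None of the 8 passed the adjusted threshold, and the intervals of AT4G16880, AT1G79160, AT5G26670 and AT1G76110 reach above 0.

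The fitted CO2 difference was above 0 in 5 members. AT4G33380, with 0.36 ± 0.13 (unadjusted 95% interval 0.05 to 0.66, limma adjusted p = 0.505), was higher in high CO2 at 3 of 3 light levels. So were the unnamed 248282_at (0.57 ± 0.20) and 255860_at (0.23 ± 0.16). Without either high-light array the value of AT4G33380 was 0.21, since its high-light pair differs most (0.65, against 0.15 in low and 0.26 in medium light). AT5G43720 had 0.12 ± 0.15, between 0.06 and 0.23 with 1 array left out. AT2G41250 had 0.00 ± 0.19 and no settled direction: it was lower in high CO2 in low and medium light and higher in high light, and ranged from -0.21 to 0.20 with 1 array left out. The signals of 248282_at, picked out after its values were seen, were 70.4, 64.5 and 33.5 in high CO2 and 41.6, 57.9 and 19.2 in ambient CO2. The signal was higher in high CO2 at each light level, but least so in medium light, and the difference did not pass (limma adjusted p = 0.47).

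A lower signal in high CO2 was not confined to the 38. The 27 probe sets that were lower in high light and also lower in medium than in low light had a median CO2 difference of -0.34, with 22 of 27 below 0. The other 31 that were as much lower in high light but missed the window had a median of -0.27, with 27 of 31 below 0. In the 53 tested probe sets raised only in high light the median was 0.31, with 13 below 0. Probe sets lower in high light thus had mostly negative and those raised in it mostly positive CO2 differences. The medians of the 38, the 27 and the 31 lie close together. The differences between these sets were not tested. In low light the median of the 38 was -0.24 and that of the 27 was -0.03. How the 38 and the 27 differ from level to level follows in part from the medium minus low differences that divide them. Nothing is read from it.

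The members with a named gene had a median CO2 difference of -0.19 and the unnamed ones -0.31. In the pathway lists, 20 genes were tested for CO2, 0 passed the limma test in either direction, 9 had a difference below 0 and their median was 0.09.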

How the data were processed

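Total RNA from 6 rosette samples was measured on 6 ATH1 arrays of 22810 probe sets. The authors deposited 1 linear signal intensity per probe set and array. The submitters' processing notes name MAS5; its version is not given in the sources used here. All 6 columns had the same 2% trimmed mean. No sequences were used here.

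The 64 control probe sets were left out. Light differences used log2 of signals floored at 20. One probe set is not reported here. CO2 was tested with limma 3.58.1 in R 4.3.3 (additive light and CO2, eBayes with an intensity trend) on log2 signal of at least 0.1, over the 13648 probe sets in the top 60% by mean (mean signal at least 26.7), with 2 residual degrees of freedom and Benjamini-Hochberg adjustment at 0.05. The eBayes step added 5.76 prior degrees of freedom, estimated across the tested probe sets. All 38 members passed that filter. The fit was also run on simulated data, and no statement here rests on that run. Python 3.11.15 drew the figures. Nothing in the labels says the samples were planted separately, and p-values cover only the spread between these arrays.

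The annotation gave 13513 probe sets 1 gene and 503 several, and 8730 are unnamed here; 13436 matched the TAIR10.1 gene table. Members and lists were chosen with earlier results of these data known. The naming rule took all members with 1 gene, the 5 largest light differences and the probe sets next to the threshold; 258239_at, 264436_at, 247222_at and 248282_at were added after their values were seen, and non-members of the pathway lists are named only where their light difference was as large. Alternatives were other normalizations, floors, filters, priors and rule thresholds, the atmosphere entry, and leaving out each array. Neighbouring genes and relatives were added after the members were seen.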

Additional observations from a re-analysis of the deposited data

How the results depend on the processing

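The count of probe sets past the CO2 threshold was 8. It was 5 with quantile normalization or in the top 40% of probe sets (which held 30 of the 38 members), and 0 with no filter, without an intensity trend or with the atmosphere entry. With 1 array left out it ranged from 8 to 165. The count of members past it was 0 in all of these except without either high-light array, so it ranged from 0 to 5. In the fits without a high-light array the rule bounds the members' spread, as stated above. The median CO2 difference over the members stayed below 0 in all 15 settings, from -0.33 to -0.19. Of 266 single-member CO2 values recomputed for 18 members, 260 kept their sign. The 18 were the 11 with a named gene, the 5 largest light differences, 264436_at and 256020_at. Many of these values are repeats. A change of filter or prior alone cannot change a probe set's CO2 difference. Either array of a light level gives the same value when left out, and the atmosphere entry gives the value without high light. Little is therefore read from how often the sign was kept. The rule found 41 probe sets with quantile normalization (34 of the 38 among them) and 31 with equal array medians (30), 38 with a floor of 10 and 30 with a floor of 40. Stricter rules found 12 with a high minus medium difference of at most -1, 16 with a medium minus low window of -0.3 to 0.3 and 22 with 100 or more in both medium-light arrays. The median high minus medium difference was -1.07 with quantile normalization and -1.06 with equal medians. A replicate block could not be formed because every array carries the same replicate number. The CO2 fit itself pairs arrays by light level. The number of arrays limits the precision.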
